A study of Mus musculus with 6 samples.

Results

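Complex III and complex IV of the mitochondrial respiratory chain, the electron carrier cytochrome c and the ATP synthase (complex V) are assembled mostly from proteins encoded in the nucleus. The genes described here are the protein-coding mouse genes whose symbol begins with Uqcr, with Cox followed by a digit, or with Atp5, together with Cyc1 and Cycs, and without the genes of mitochondrial DNA. The rule itself uses symbols only and no measured value, but it was chosen with earlier results of these data known. It found 55 of the 55487 gene identifiers in each deposited table, of which 9 belong to complex III, 1 is Cycs, 27 belong to complex IV and 18 to complex V. Not all of them encode subunits, since 9 genes of the Cox series encode factors that assemble complex IV, Cox7a2l encodes a factor of supercomplexes and Atp5s a coupling factor. A few subunits with other symbols, such as Ndufa4 of complex IV and Usmg5 of complex V, fall outside the rule and are given separately.

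Complex III takes electrons from ubiquinol and passes them to cytochrome c, complex IV uses them to reduce oxygen, and both pump protons across the inner mitochondrial membrane. Complex V lets the protons flow back through a turning ring of c subunits and makes ATP in its F1 head. Each of these complexes joins nuclear subunits with a few made inside the mitochondrion, and resting T cells draw much of their ATP from this pathway. Rapamycin inhibits the kinase complex mTORC1, which is known in several cell types to promote the transcription and translation of nuclear genes for mitochondrial proteins.

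The cells were naive CD4+ T cells of the spleen, from mice of strain C57BL6/J with a wild-type genotype, and poly(A) RNA was sequenced. Mice that received no treatment gave 3 libraries, and mice treated with rapamycin in vivo gave the other 3. The dose, its duration, the age of the mice, the purity of the sort and whether cells of several mice were pooled are not given in the sources used here. The labels also do not say whether the 3 libraries of a group came from separate mice, so p-values reflect only how far these libraries vary, which may be technical.

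The libraries held between 8757280 and 11393317 expected counts in all, and 3 counts came to 0.263 to 0.343 CPM, counts scaled to a common library size. The mean fragment length was 239.2 to 239.8 bases in the untreated libraries and 250.6 to 256.5 bases in the rapamycin libraries. Naive CD4 T cell markers summed to 7530 to 7640 TPM (transcript levels per length, scaled to the same sum in each library) in untreated and 7540 to 7600 TPM in rapamycin libraries, and all 11 passed the filter on low counts. Markers of other cells moved with the groups. The count test described below, without length correction, called 23.3% of all genes tested lower and 24.1% higher. Of the tested myeloid markers 6 of 7 were lower with rapamycin (summed level 79.2 to 82.3 TPM in untreated, 16.2 to 26.5 TPM in rapamycin libraries), as were 5 of 9 B and plasma cell markers (1810 to 1880 against 1390 to 1430 TPM), 2 of 3 erythroid markers (26.6 to 37.5 against 12.3 to 14.9 TPM) and 3 of 5 markers of activated or memory T cells (54.1 to 65.1 against 21.6 to 29.6 TPM). Both CD8 markers were higher (17.6 to 19.2 against 76.6 to 80.1 TPM), and of 6 tested NK cell markers 2 were lower (Gzma and Klrb1c) and 1 higher (Nkg7), with summed levels that overlap (70.8 to 74.3 against 72.1 to 76.7 TPM). The part that these cells have in the results below was not tested, and in bulk RNA fewer cells of a type and less RNA per cell cannot be told apart.

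Promoters are shown first because many genes of this set are known to share a few transcription factor motifs near their start. A RefSeq promoter, 250 bases before to 50 after the start on build GRCm38.p6, was matched by symbol or older symbol for 37 of the 47 genes tested below, and these genes have 41 promoters. 5 are printed, 1 for complex III, for complex IV subunits, for complex IV assembly, for complex V and for cytochrome c. Each is the promoter of the gene with the smallest length-corrected adjusted p in its group among those that hold the letters searched for nuclear respiratory factor 1 (NRF1) or for ETS factors. They run 5′ to 3′ on the strand of the gene, and capitals mark the letters searched on both strands: GCATGCG (NRF1), CCGGAAG (ETS), AAGATGG (YY1), AAGGTCA (estrogen-related receptors, ERR) and GGGCGG (SP1). The regions are chr10:80406772-80407071 (minus strand) for Uqcr11, chr7:30626065-30626364 (minus) for Cox6b1, chr15:99725368-99725667 (plus) for Cox14, chr2:174464052-174464351 (minus) for Atp5e and chr6:50566520-50566819 (minus) for Cycs.
Uqcr11: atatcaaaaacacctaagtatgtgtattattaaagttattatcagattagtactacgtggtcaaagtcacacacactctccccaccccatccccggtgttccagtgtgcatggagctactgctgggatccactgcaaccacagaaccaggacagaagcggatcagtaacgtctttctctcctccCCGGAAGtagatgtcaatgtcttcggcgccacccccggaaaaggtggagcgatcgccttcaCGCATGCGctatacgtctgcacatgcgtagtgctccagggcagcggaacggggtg
Cox6b1: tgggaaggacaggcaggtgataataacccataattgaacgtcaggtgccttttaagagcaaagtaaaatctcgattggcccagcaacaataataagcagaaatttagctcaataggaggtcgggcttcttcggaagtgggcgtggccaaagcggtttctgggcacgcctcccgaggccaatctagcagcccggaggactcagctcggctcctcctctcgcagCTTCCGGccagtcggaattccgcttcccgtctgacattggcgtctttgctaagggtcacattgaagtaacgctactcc
Cox14: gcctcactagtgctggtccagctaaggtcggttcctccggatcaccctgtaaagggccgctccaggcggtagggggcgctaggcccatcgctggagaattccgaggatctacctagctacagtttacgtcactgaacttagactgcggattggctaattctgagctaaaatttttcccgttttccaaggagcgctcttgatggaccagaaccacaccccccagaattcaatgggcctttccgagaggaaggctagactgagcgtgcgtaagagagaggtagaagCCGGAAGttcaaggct
Atp5e: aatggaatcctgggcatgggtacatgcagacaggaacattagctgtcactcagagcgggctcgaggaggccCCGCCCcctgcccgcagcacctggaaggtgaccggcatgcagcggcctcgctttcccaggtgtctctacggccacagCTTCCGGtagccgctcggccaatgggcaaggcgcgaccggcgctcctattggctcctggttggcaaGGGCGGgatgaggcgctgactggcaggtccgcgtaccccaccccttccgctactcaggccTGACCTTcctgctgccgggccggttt
Cycs: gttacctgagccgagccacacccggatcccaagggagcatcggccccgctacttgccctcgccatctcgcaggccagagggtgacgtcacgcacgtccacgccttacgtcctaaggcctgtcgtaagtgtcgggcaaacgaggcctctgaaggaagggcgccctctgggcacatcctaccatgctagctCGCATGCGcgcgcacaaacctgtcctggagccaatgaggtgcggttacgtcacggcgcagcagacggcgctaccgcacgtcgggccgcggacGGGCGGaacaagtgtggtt

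In Uqcr11 and Cycs the run of 8 capitals holds the NRF1 letters on both strands, so that the 2 matches overlap. Over the set, the NRF1 letters were in the promoters of 8 genes, Uqcrc1, Uqcr11, Cycs, Cox6a1, Atp5g2, Atp5j, Atp5k and Atp5l. That is 19.5% of the set's promoters, against 6.67% of 11246 promoters of all tested genes and 3.58% of 32851 promoters in all. The ETS letters were in the promoters of 15 genes, or 39.0% of promoters, against 19.2% and 8.86%. YY1 letters were in 14.6% (7.34% and 6.34%), ERR letters in 9.76% (3.23% and 4.72%) and SP1 letters in 41.5% (62.3% and 35.7%). A start with C followed by 4 pyrimidines, as in mRNAs with a terminal oligopyrimidine tract, was annotated for 3 genes, Uqcrfs1, Atp5d and Atp5g2, or 7.32% of promoters against 2.41% and 2.51%. Mean GC content of the windows was 58.2%, against 60.5% and 53.8%. These shares describe letters in fixed windows; neither binding nor a link between a motif and the changes below was measured.

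Of the 55 genes, 47 had enough counts to be tested among 11950 genes, and 8 did not. Those 8 include the isoforms known mainly from muscle, lung or testis. Cox4i2, Cox7b2, Cox8b and Cox8c had 0 counts in all 6 libraries, as had a second identifier named Atp5o, Cox7a1 had at most 1 count and Cox6a2 at most 2. Cox6b2, the testis form of subunit 6b, had between 0 and 9 counts, too few for a test.

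Transcripts of these nuclear genes of complexes III, IV and V took a smaller share of the RNA with rapamycin. Those from mitochondrial DNA are given separately below. All 55 genes together held 0.429% to 0.434% of all counts in untreated libraries and 0.325% to 0.33% in rapamycin libraries. The summed level of the 47 tested genes was 9544, 9517 and 9638 TPM in the untreated libraries. It was 7772, 7821 and 7671 TPM in the rapamycin libraries, and the groups do not overlap. In the quasi-likelihood test of edgeR, with p-values adjusted by the Benjamini-Hochberg method over all genes tested and a threshold of 0.05, 44 of the 47 were lower with rapamycin and 0 were higher. Of all genes tested, 23.3% were lower and 24.1% higher. Median log2 fold change was −0.44 in the set and −0.01 over all genes. Cox11, Cox17 and Atp5s did not pass the test. In TPM, all rapamycin libraries lay below all untreated ones for 35 of the 47 genes, against 14.8% of all genes tested.

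The size of these changes went with gene length. The median length of the 47 genes was 730 bases, against 2366 bases over all tested genes, and short genes as a class were lower with rapamycin. Among 1261 tested genes shorter than 1000 bases, 623 were lower and the median log2 fold change was −0.31, while among 31 short genes of the set 29 were lower with a median of −0.48. A second fit therefore carried an offset for gene length, a smooth curve of each library's deviations on log2 length over all well-measured genes. With this length correction 23 of the 47 genes were lower and 1, Cox11, was higher, against 18.3% and 20.2% of all genes tested. Median log2 fold change of the set became −0.14, and that of all genes stayed at −0.01. The 23 genes lower with the correction were also lower without it, and 21 were lower only without it. The offset took between −0.46 and 0.15 from a gene's log2 fold change, and −0.32 at the median. Because the set's genes are themselves short, the curve was also fitted without them, without the rest of the respiratory chain and without ribosomal protein genes, and the calls of all 47 stayed the same. That curve still rests on all other short genes, so a change that short genes share for any reason is removed by the correction, and a length-corrected value is a difference from genes of like length.

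Both short and long genes of the set were among those called. Among the 31 genes under 1000 bases, 11 were lower with the correction (median −0.10), against 183 of all 1261 tested short genes (median 0.00). In the 16 genes of 1000 bases or more the offset was −0.12 at the median and reached −0.23 (Cox19). Of these, 15 were lower without the correction (median −0.31), against 2162 of 10689 tested genes of such length (median 0.02). With it 12 were lower (median −0.27) and Cox11 was higher, against 2001 lower and 2199 higher of the 10689 (median −0.01). Across the 47 genes, which are not independent of one another, Spearman's rho of length with log2 fold change was 0.44 without and −0.26 with the correction, and over all genes it was 0.43 and −0.02. limma on log2(TPM + 1), which uses the authors' own length scaling, called 31 of the 47 lower and 0 higher, against 9.63% and 22.8% of all genes. The 13 genes whose lower call was lost on that scale were Cyc1, Uqcrc1, Uqcrc2, Uqcrb, Cycs, Cox5b, Cox6c, Cox7a2l, Cox10, Cox14, Cox15, Atp5g2 and Atp5j. On that scale the median was −0.29 in the set and 0.09 over all genes. Lower calls made up 29.7% of all calls on that scale, against 49.2% in the count test.

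**Figure D1:**
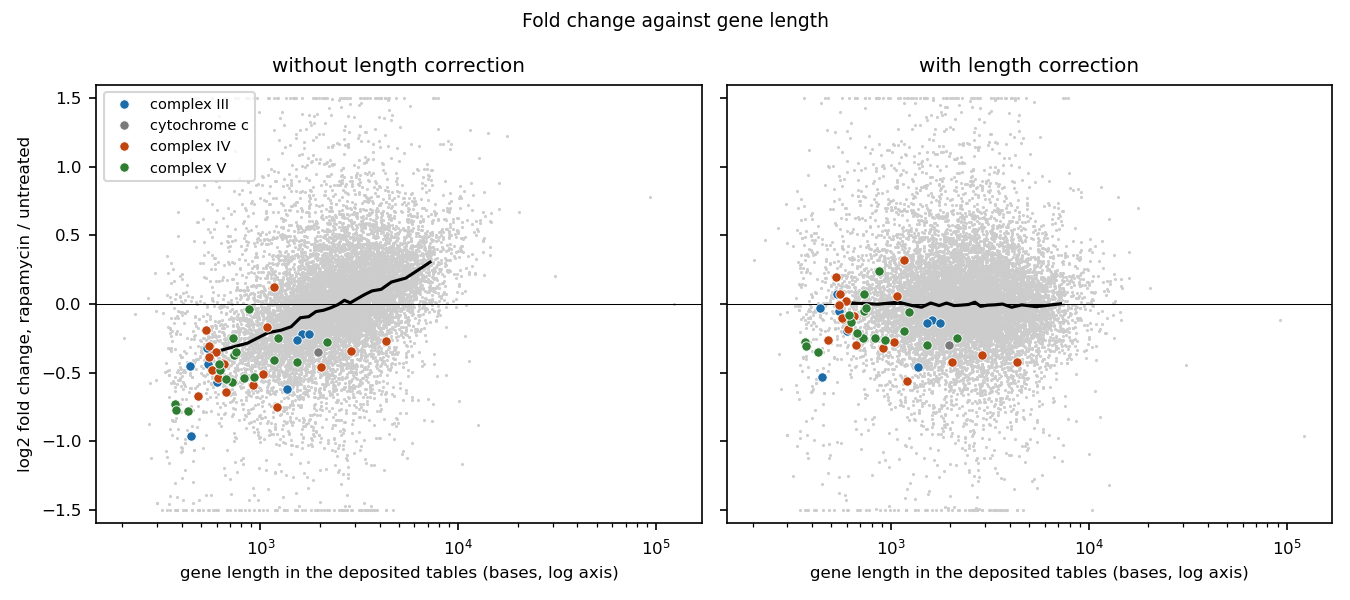
Log2 fold change, rapamycin over untreated, against gene length in bases (log axis), without (left) and with (right) the length correction. Grey points are all genes tested, with those beyond the axis drawn at its edge, the black line is their median in groups of equal size by length, and coloured points are the 47 genes of complexes III, IV and V and cytochrome c. On the left the line climbs with length and most coloured points lie below it, while on the right the line is flat and the set's median is −0.14.

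**Figure D2:**
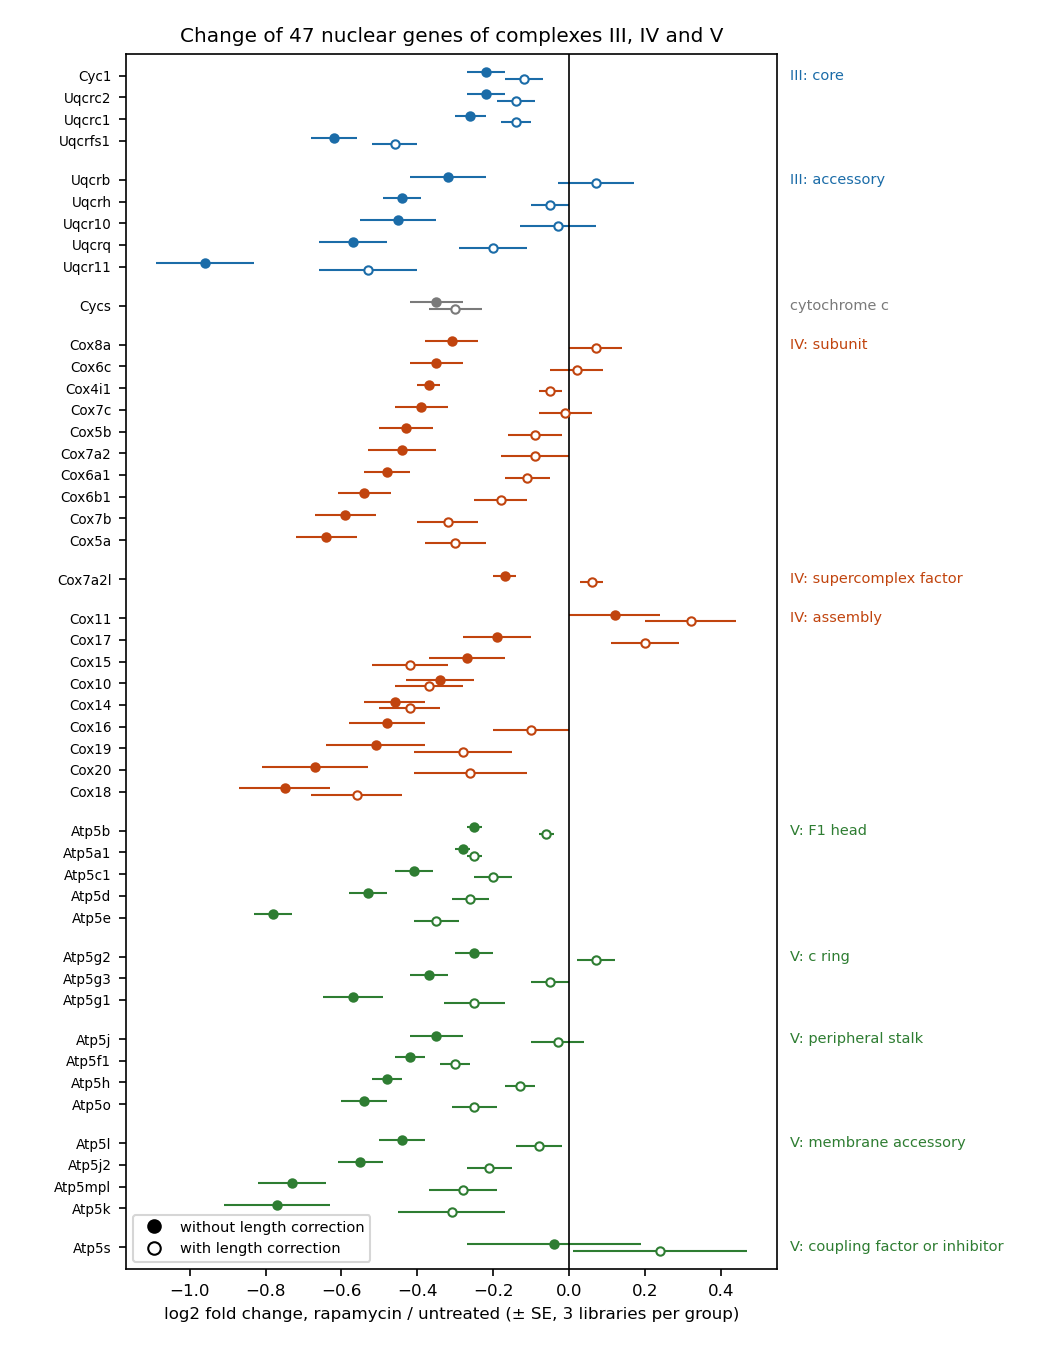
Log2 fold change ± SE of each gene, 3 libraries per group, ordered by complex and role. Filled circles are without and open circles with the length correction, and the vertical line marks no difference. Of the filled circles 46 of 47 lie left of the line, and of the open circles 39.

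All 9 complex III genes were lower without the length correction (median −0.44), and 4 with it (median −0.14). Counts by complex and by role, here and below, stand beside 23.3% of all tested genes lower without the correction and 18.3% with it. Their summed level was 1481 ± 29.9 TPM in untreated and 1198 ± 50.0 TPM in rapamycin libraries (SD, n = 3), or 80.9% of the untreated mean. The nuclear core subunits are made by 4 genes, all lower without the correction, and 3 of them with it. Uqcrfs1 encodes the Rieske iron-sulfur protein, which takes electrons from ubiquinol (ENSMUSG00000038462, mm10 chromosome 13, 30540308 to 30545362). It was at 88.5, 93.4 and 88.2 CPM in the untreated libraries and at 57.8, 54.4 and 63.6 CPM in the rapamycin libraries. The groups lay far apart beside their spread, and Uqcrfs1 was the core gene with the largest fall, by 0.62 ± 0.06 on the log2 scale (adjusted p = 9.8e-15), or 0.46 ± 0.06 with the correction (adjusted p = 5.0e-10). Uqcrc1, a structural core protein, had the highest level of the core genes per length, 150 ± 4.25 TPM in untreated libraries. In CPM it stood at 149, 149 and 155 in the untreated and at 119, 129 and 129 in the rapamycin libraries, without overlap, whereas its TPM values did overlap. Its log2 fold change was −0.26 ± 0.04 without and −0.14 ± 0.04 with the correction (adjusted p = 0.00379). Uqcrc2, the partner core protein, and Cyc1, the cytochrome c1 that hands electrons to cytochrome c, were each lower by −0.22 without the correction. With it they were at −0.14 (adjusted p = 0.0157) and −0.12 (adjusted p = 0.077). The length-corrected calls of this core rest in part on single libraries. Uqcrc1 was at −0.10 (adjusted p = 0.0854) without rapamycin replicate 1, and Uqcrc2 at −0.12 (adjusted p = 0.0758) without untreated replicate 2 and at −0.10 (adjusted p = 0.128) without rapamycin replicate 3. Cyc1 passed at −0.17 (adjusted p = 0.0117) without untreated replicate 2.

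The small accessory subunits of complex III surround the core and carry no redox centre. All 5 were lower without the correction (median −0.45), and 1, Uqcr11, with it (median −0.05), a corrected share near the 18.3% of all genes. Uqcrh, the hinge protein near cytochrome c1, was the most abundant complex III transcript of the set per length, at 540 ± 11.1 TPM untreated and 443 ± 24.4 TPM with rapamycin. Its CPM values were 125, 127 and 124 in the untreated and 85.6, 96.2 and 96.5 in the rapamycin libraries. These groups do not overlap, yet the log2 fold change of −0.44 ± 0.05 (adjusted p = 2.8e-12) became −0.05 ± 0.05 (adjusted p = 0.383) with the length correction. Uqcr11, whose promoter is printed above, encodes the smallest subunit of the complex (mm10 chromosome 10, 80402997 to 80406830). It was at 17.9, 19.8 and 20.2 CPM in the untreated and at 8.52, 13.0 and 8.34 CPM in the rapamycin libraries. Rapamycin replicate 2 lay nearest to the untreated libraries but still below all of them. The fall of 0.96 ± 0.13 on the log2 scale was the largest in the whole set without the correction, and it was 0.53 ± 0.13 with it (adjusted p = 7.9e-04). Uqcrb, Uqcr10 and Uqcrq, the other accessory subunits, changed by −0.32, −0.45 and −0.57 without the correction and stood at 0.07, −0.03 and −0.20 with it, none of which passed. Uqcrb rested on untreated replicate 2, its highest library, and was at −0.21 (adjusted p = 0.148) without it.

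Cycs encodes cytochrome c itself, which shuttles electrons from complex III to complex IV and triggers apoptosis when released. It was at 47.9, 49.1 and 54.6 CPM in the untreated and at 37.9, 41.4 and 39.6 CPM in the rapamycin libraries. The groups do not overlap. With 1959 bases Cycs is long for this set, and its log2 fold change hardly depended on the correction, at −0.35 ± 0.07 (adjusted p = 3.1e-05) without and −0.30 ± 0.07 (adjusted p = 4.3e-04) with it. Its counts were not whole in any library, so that some of its reads were divided with other loci, and its level of 38.8 ± 2.65 TPM in untreated libraries is uncertain for that reason.

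The nuclear genes for complex IV subunits were all lower without the length correction, 10 of 10 with a median of −0.44, against 23.3% of all genes tested. With it 3 of 10 were lower (Cox5a, Cox6b1 and Cox7b, median −0.09), against 18.3% of all genes. Summed over the 10 subunits, the level was 2279 ± 24.5 TPM in untreated and 1889 ± 56.3 TPM in rapamycin libraries, or 82.9% of the untreated mean. Cox4i1, the common form of subunit 4, through which ATP inhibits the enzyme, was the most abundant of them at 639 ± 20.3 TPM untreated. It was at 247, 243 and 233 CPM in the untreated and at 183, 192 and 186 CPM in the rapamycin libraries. The groups were well separated in CPM and TPM, and the log2 fold change was −0.37 ± 0.03 (adjusted p = 1.5e-15), but −0.05 ± 0.03 with the length correction (adjusted p = 0.211). Cox7b, a small membrane subunit encoded on chromosome X (mm10, 106015700 to 106022450), was at 42.2, 42.0 and 38.4 CPM in the untreated and at 27.1, 30.1 and 24.4 CPM in the rapamycin libraries. Here too no library of one group reached the other. It fell by 0.59 ± 0.08 on the log2 scale (adjusted p = 1.2e-08), and by 0.32 ± 0.08 with the correction (adjusted p = 9.7e-04). Cox5a, a subunit on the matrix side, fell by 0.64 without and 0.30 with the correction (adjusted p = 0.00112). Cox6b1, which faces the intermembrane space and cytochrome c, fell by 0.54 and 0.18 (adjusted p = 0.0289 with the correction). The length-corrected Cox6b1 call was lost without untreated replicate 1 (−0.17, adjusted p = 0.0754), rapamycin replicate 2 (−0.15, adjusted p = 0.108) or rapamycin replicate 3 (−0.09, adjusted p = 0.315).

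The other 6 complex IV subunits changed without the correction only. Cox8a, Cox6c, Cox7c, Cox5b, Cox7a2 and Cox6a1 were at −0.31, −0.35, −0.39, −0.43, −0.44 and −0.48, and with the correction at 0.07, 0.02, −0.01, −0.09, −0.09 and −0.11, with adjusted p of 0.108 or more. Cox5b, the zinc-binding subunit, also shows how the length estimate enters TPM. Its abundance-weighted length in the deposited tables was 682 bases on average in untreated and 615 bases in rapamycin libraries, with no overlap, and its TPM values of 138, 127 and 147 overlapped those of 147, 113 and 136 with rapamycin. Its CPM values did not overlap (43.8 to 49.0 against 32.5 to 36.4). Whether isoform use or the estimate of isoforms differs there was not tested. Ndufa4, a complex IV subunit named for complex I, was at −0.40 (adjusted p = 3.8e-05) and with the correction at −0.04 (adjusted p = 0.755).

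Cox7a2l encodes a protein known for a part in supercomplexes of complexes III and IV, a function that was not measured in these cells. Per length it was nearly as abundant as Cox4i1, at 577 ± 18.4 TPM in untreated and 555 ± 12.5 TPM in rapamycin libraries. It was at 353, 374 and 372 CPM in the untreated and at 321, 323 and 333 CPM in the rapamycin libraries. The CPM groups do not overlap but the TPM groups do, and the small log2 fold change of −0.17 ± 0.03 (adjusted p = 6.3e-07) became 0.06 ± 0.03 (adjusted p = 0.108) with the correction.

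The assembly factors of complex IV were the least uniform group. Of 9, 7 were lower without the length correction (median −0.46), and with it 4 were lower (Cox10, Cox14, Cox15 and Cox18; median −0.28) and Cox11 was higher. Cox17, a chaperone that carries copper to the enzyme, was the most abundant of them at 139 ± 10.9 TPM untreated. It was at 30.2, 31.7 and 27.6 CPM in the untreated and at 26.2, 27.6 and 24.4 CPM in the rapamycin libraries. The groups overlap at their edge, and Cox17 passed in neither fit (−0.19, adjusted p = 0.0664, and 0.20, adjusted p = 0.0696, with the correction). It passed without untreated replicate 3 (−0.25, adjusted p = 0.0357 without the length correction). Cox14, which steers the making of the mitochondrial subunit 1, was at 36.3, 37.1 and 33.9 CPM in the untreated and at 23.8, 27.3 and 27.1 CPM in the rapamycin libraries. No rapamycin library reached the untreated range, and the log2 fold change was −0.46 ± 0.08 without and −0.42 ± 0.08 with the correction (adjusted p = 4.4e-05). Cox11, which helps to place copper in subunit 1, was the exception. It was at 14.7, 14.9 and 13.3 CPM in the untreated and at 16.6, 15.3 and 14.7 CPM in the rapamycin libraries. CPM values overlap, while in TPM the rapamycin libraries (25.7, 23.2 and 23.0) lay above the untreated ones (20.8, 21.1 and 18.7). Its log2 fold change was 0.12 ± 0.12 (adjusted p = 0.431), and 0.32 ± 0.12 with the correction (adjusted p = 0.0266). That call was lost without untreated replicate 1 (0.33, adjusted p = 0.0599), untreated replicate 3 (0.27, adjusted p = 0.0982) or rapamycin replicate 1 (0.28, adjusted p = 0.108), and Cox11 counts include reads divided with other loci.

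Cox10 and Cox15 make the heme a that complex IV alone among these complexes carries. Cox10 was at −0.34 without and −0.37 with the correction (adjusted p = 6.3e-04), and Cox15 at −0.27 and −0.42 (adjusted p = 7.9e-04 with the correction). Cox15 is the longest gene of the set at 4334 bases, so that the correction moves it the other way. On the log2(TPM + 1) scale it was at −0.08 (limma, adjusted p = 0.78), and its groups overlap in CPM and in TPM. Its uncorrected call was lost without untreated replicate 1 (−0.24, adjusted p = 0.0981), untreated replicate 3 (−0.20, adjusted p = 0.156) or rapamycin replicate 3 (−0.18, adjusted p = 0.203). Cox18, an insertase for the mitochondrial subunit 2, showed the largest fall of the set with the correction, by 0.75 ± 0.12 without and 0.56 ± 0.12 with it (adjusted p = 9.9e-05). Cox16, Cox19 and Cox20, further factors in copper delivery and subunit 2 maturation, were at −0.48, −0.51 and −0.67 without the correction. With it they were at −0.10, −0.28 and −0.26, and did not pass. Cox19 passed without rapamycin replicate 3 (−0.37, adjusted p = 0.0495) and Cox20 without rapamycin replicate 1 (−0.45, adjusted p = 0.0288).

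**Figure D3:**
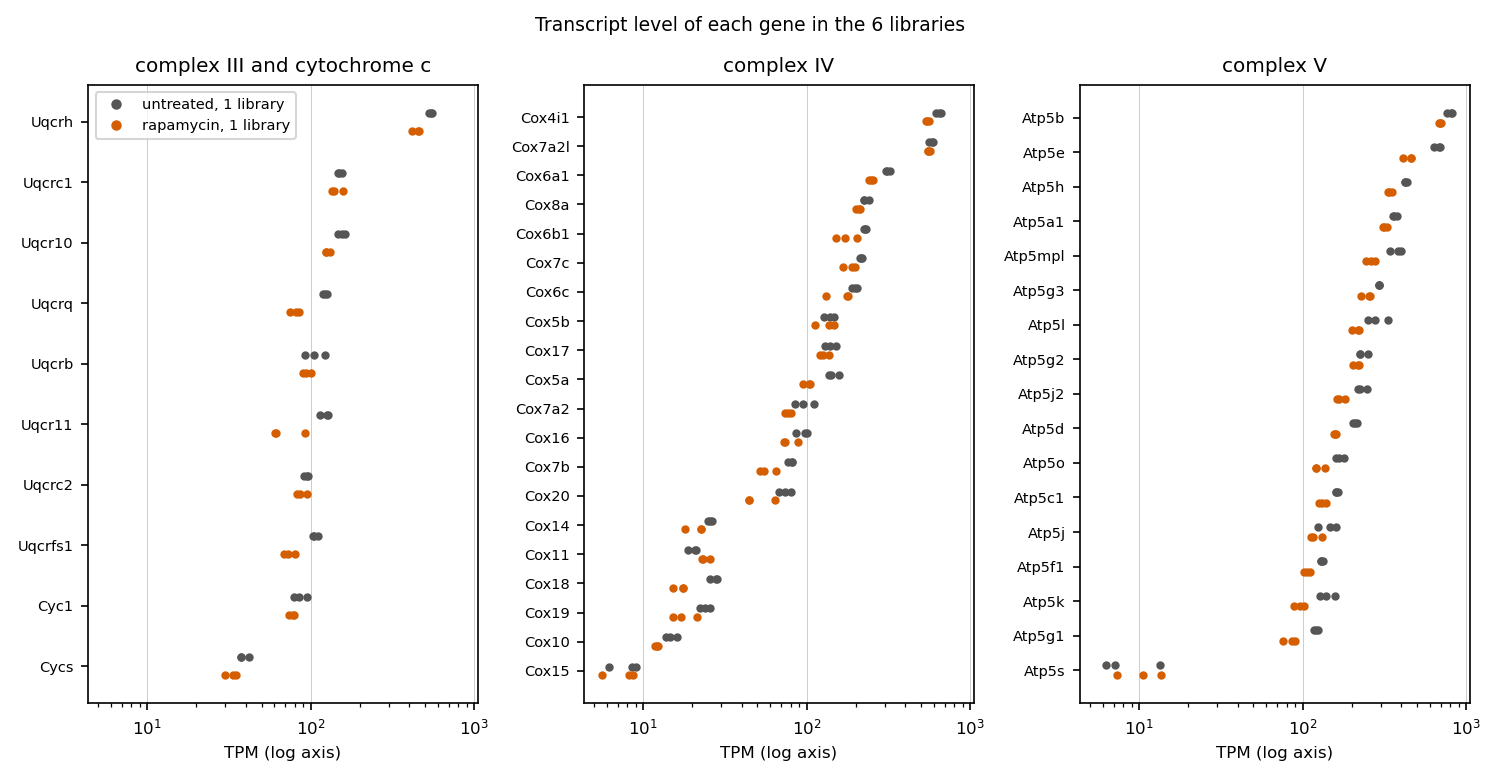
TPM of each gene in each library (log axis), 1 point per library, grey for untreated and orange for rapamycin, in 3 panels by complex and ordered by mean level. The orange points lie to the left of the grey ones for 35 of the 47 genes, and Cox11 is the 1 gene with all orange points to the right.

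Complex V gave 11 of the 23 genes that were lower in both fits. All 16 subunit genes were lower without the length correction (median −0.46), and with it the median was −0.23. Their summed level was 4754 ± 65.8 TPM in untreated and 3713 ± 65.5 TPM in rapamycin libraries, or 78.1% of the untreated mean. The 5 genes of the F1 head, which holds the catalytic sites and the central stalk, were all lower in both fits (medians −0.41 and −0.25). Atp5b encodes the catalytic beta subunit and was the most abundant transcript of the set, at 797 ± 28.7 TPM untreated. It was at 579, 593 and 592 CPM in the untreated and at 506, 486 and 490 CPM in the rapamycin libraries. The groups do not overlap, and the log2 fold change was −0.25 ± 0.02 (adjusted p = 2.0e-14) without and −0.06 ± 0.02 (adjusted p = 0.0219) with the correction. The corrected value is small and rests on single libraries, with −0.06 (adjusted p = 0.0564) without untreated replicate 3, −0.05 (adjusted p = 0.195) without rapamycin replicate 2 and −0.06 (adjusted p = 0.0952) without rapamycin replicate 3. Atp5a1, the alpha subunit that alternates with beta around the head, was at 526, 539 and 528 CPM in the untreated and at 446, 432 and 437 CPM in the rapamycin libraries. Its libraries lie close together within each group, and with 2145 bases in untreated libraries it is little touched by length, at −0.28 ± 0.02 (adjusted p = 1.4e-15) and −0.25 ± 0.02 (adjusted p = 1.2e-13). Atp5e encodes the small epsilon subunit of the central stalk (mm10 chromosome 2, 174461072 to 174464105). It was at 99.5, 93.3 and 98.5 CPM in the untreated and at 58.3, 53.2 and 58.5 CPM in the rapamycin libraries. That is the smallest uncorrected adjusted p of the set (3.1e-19) with a log2 fold change of −0.78 ± 0.05, and −0.35 ± 0.06 with the correction (adjusted p = 5.9e-07). Atp5c1 (gamma, the rotor shaft) and Atp5d (delta) fell by 0.41 and 0.53 without the correction, and by 0.20 (adjusted p = 3.4e-04) and 0.26 (adjusted p = 6.8e-06) with it.

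Atp5g1, Atp5g2 and Atp5g3 encode the c subunit of the membrane ring, with the same mature protein and different import signals. All 3 were lower without the correction (median −0.37), and Atp5g1 also with it. Atp5g3 had the highest level of these genes per length, 294 ± 1.90 TPM untreated. It was at 111, 110 and 109 CPM in the untreated and at 88.5, 88.5 and 77.3 CPM in the rapamycin libraries. The difference of −0.37 ± 0.05 (adjusted p = 2.5e-09) shrank to −0.05 ± 0.05 (adjusted p = 0.419) with the correction. Atp5g1 was at 41.4, 42.5 and 44.3 CPM in the untreated and at 28.9, 30.9 and 26.3 CPM in the rapamycin libraries. Both its fits passed, at −0.57 ± 0.08 and −0.25 ± 0.08 (adjusted p = 0.0081), although without rapamycin replicate 3 the corrected value was −0.19 (adjusted p = 0.0776). Atp5g2 was at −0.25 and, with the correction, at 0.07 (adjusted p = 0.33). These genes have nearly the same length, 719 to 733 bases, so the correction hardly alters their order, but reads of Atp5g1 and Atp5g2 were partly divided with other loci and a difference between the 3 genes was not tested.

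The peripheral stalk keeps the F1 head from turning with the rotor. Its 4 genes were lower without the correction (median −0.45), and 3 of them with it (median −0.19). Atp5h, the d subunit, was the most abundant at 427 ± 5.73 TPM untreated. It was at 126, 128 and 124 CPM in the untreated and at 87.7, 93.6 and 89.3 CPM in the rapamycin libraries. The log2 fold change was −0.48 ± 0.04 and, with the correction, −0.13 ± 0.04 (adjusted p = 0.0184), a call that was lost without untreated replicate 1 (−0.12, adjusted p = 0.0514), rapamycin replicate 1 (−0.11, adjusted p = 0.093) or rapamycin replicate 3 (−0.12, adjusted p = 0.057). Atp5f1, the b subunit that forms the length of the stalk (mm10 chromosome 3, 105942698 to 105960099), was at 133, 126 and 127 CPM in the untreated and at 99.0, 98.1 and 91.8 CPM in the rapamycin libraries. The groups stood well apart, with a log2 fold change of −0.42 ± 0.04 without and −0.30 ± 0.04 with the correction (adjusted p = 1.2e-07). Atp5o, which ties the stalk to the top of F1, fell by 0.54 and 0.25 (adjusted p = 5.4e-04 with the correction). Atp5j, a further stalk subunit, was at −0.35 and, with the correction, at −0.03 (adjusted p = 0.722).

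The accessory subunits in the membrane help ATP synthase to pair into dimers that bend the inner membrane. They are among the shortest transcripts of the set, from 369 to 670 bases, and all 4 were lower without the correction (median −0.64) and 2 with it (median −0.24). Atp5mpl, a small proteolipid, was the most abundant per length at 375 ± 29.5 TPM untreated. It was at 40.5, 38.8 and 34.4 CPM in the untreated and at 22.5, 22.1 and 23.9 CPM in the rapamycin libraries. The log2 fold change was −0.73 ± 0.09 without and −0.28 ± 0.09 with the correction (adjusted p = 0.00857), and the corrected call was lost without untreated replicate 1 (−0.18, adjusted p = 0.161) or rapamycin replicate 2 (−0.21, adjusted p = 0.0918). Atp5j2, the f subunit, was at 73.3, 76.3 and 74.3 CPM in the untreated and at 51.1, 51.0 and 50.8 CPM in the rapamycin libraries. Its values were close to each other within each group, and it fell by 0.55 ± 0.06 without and 0.21 ± 0.06 with the correction (adjusted p = 0.00245). Atp5k (e subunit) and Atp5l (g subunit) were at −0.77 and −0.44 without the correction, and at −0.31 (adjusted p = 0.0621) and −0.08 (adjusted p = 0.361) with it. Atp5k passed at −0.38 (adjusted p = 0.0413) without untreated replicate 3, and Atp5l at −0.16 (adjusted p = 0.0473) without untreated replicate 2. Atp5s, a coupling factor that is no subunit of the enzyme, was low and scattered, at 5.03, 3.71 and 4.07 CPM in the untreated and 3.6, 4.74 and 4.17 CPM in the rapamycin libraries. Its groups overlap, and with 33 to 58 counts a log2 fold change of −0.04 ± 0.23 (adjusted p = 0.903), or 0.24 ± 0.23 with the correction (adjusted p = 0.439), does not show that the level was equal.

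Transcripts from mitochondrial DNA for the same complexes were higher with rapamycin in summed TPM where the nuclear ones were lower. The nuclear subunit transcripts of complexes III, IV and V summed to 80.9%, 82.9% and 78.1% of their untreated means, and the mitochondrial ones to 116%, 124% and 111%. mt-Cytb, the mitochondrial core subunit of complex III, was higher in both fits, by 0.10 ± 0.02 (adjusted p = 1.3e-07) without and 0.31 ± 0.02 (adjusted p = 1.4e-24) with the correction. Of the complex IV genes, mt-Co2 was at 0.45 and 0.79 (adjusted p = 0.0277 and 0.00675; 0.43 and 0.0662 without a filter on low counts and without the correction), while mt-Co3 passed in neither fit (−0.35 and −0.05). mt-Co1 was at 0.04 and 0.16, and with upper-quartile or no composition factors its uncorrected value was 0.00 and did not pass, as it did not at 0.02 without a filter on low counts. Of the complex V genes, mt-Atp6 was at 0.57 (adjusted p = 0.0442) and 0.90 (adjusted p = 0.013), and without the correction it missed the threshold with upper-quartile factors (0.52, adjusted p = 0.0556), with no composition factors (0.53, adjusted p = 0.054) and without a filter on low counts (0.55, adjusted p = 0.0924). mt-Atp8 turned with the correction, from −0.25 (adjusted p = 2.1e-06) to 0.32 (adjusted p = 2.0e-08). It makes up most of the complex V sum, at 14600 ± 304 TPM in untreated and 15500 ± 686 TPM in rapamycin libraries, which overlap. mt-Atp8 is at the short end of the length curve and overlaps mt-Atp6, and reads of mitochondrial genes can be divided with nuclear copies, so that their values are uncertain. No test of the nuclear against the mitochondrial genes was made.

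**Figure D4:**
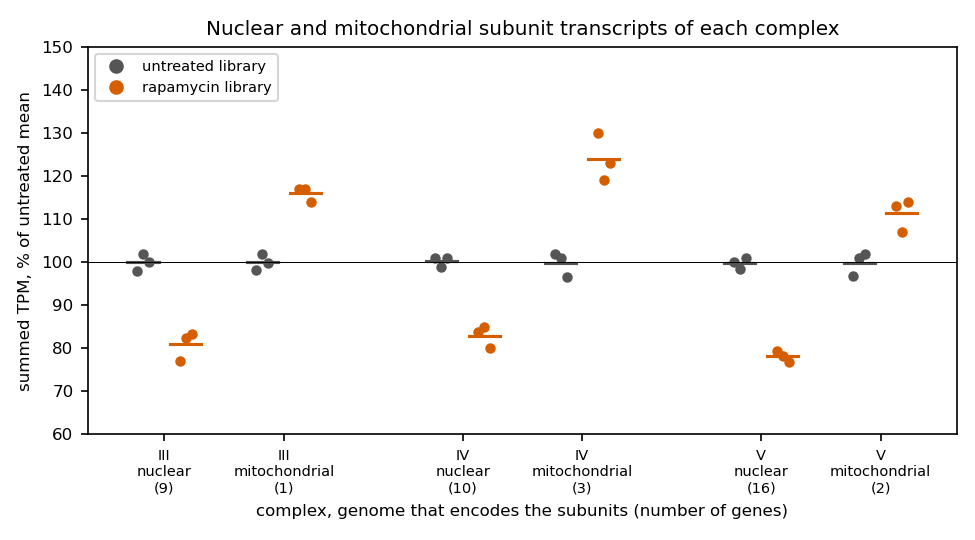
Summed TPM of the nuclear and the mitochondrial subunit genes of each complex, as a percentage of the untreated mean. Points are libraries, grey for untreated and orange for rapamycin, bars are group means, and the number of genes is under each label. The 3 orange points are below all grey points for each nuclear sum and above them for each mitochondrial sum.

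Other genes of oxidative phosphorylation were counted in lists drawn up by function, to be read against the 23.3% of all tested genes that were lower without the length correction and the 18.3% with it. Of 37 subunits of complex I, the entry of electrons from NADH, 35 were lower without the length correction (median −0.43), and with it 13 were lower and 1 higher (median −0.15). Ndufb11, Ndufa2 and Ndufb10 were at −0.54, −0.61 and −0.55, and with the correction at −0.27, −0.23 and −0.22. All 4 subunits of complex II, which feeds electrons from succinate, were lower without and 3 with the correction, Sdhc at −0.54 and −0.43 and Sdhb at −0.42 and −0.21. Factors that assemble complex III were lower in 2 of 6 cases without and 0 with the correction, among them Uqcc2 (−0.69 and −0.29, adjusted p = 0.131 with the correction). Further factors for complex IV were lower in 10 of 17 cases without and 3 with the correction, among them Cmc2 (−0.95 and −0.76, adjusted p = 0.0029 with the correction), so that the corrected share is near that of all genes. Subunits and factors of complex V with other symbols were lower in 5 of 7 cases without and 0 with the correction, with Usmg5 at −0.63 and −0.18.

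Genes for transcription factors and coactivators that are known to act on respiratory genes did not move one way. Of 13 tested, 4 were lower and 4 higher without the length correction, and 2 and 3 with it (medians 0.08 and −0.04). These counts are near the shares of all tested genes, 23.3% lower and 24.1% higher without and 18.3% and 20.2% with the correction. Nrf1, whose factor binds the NRF1 letters printed in the Uqcr11 and Cycs promoters, was at 41.4 ± 1.09 TPM in untreated and 52.8 ± 1.43 TPM in rapamycin libraries. The groups do not overlap, and its log2 fold change was 0.27 ± 0.05 (adjusted p = 1.7e-05) and 0.28 ± 0.05 with the correction. Ppargc1b, a coactivator of respiratory genes, rose by 0.52 and 0.43 (adjusted p = 9.1e-05 and 0.00163). Yy1 and Sp1, long transcripts, were at 0.25 and 0.22 without and at 0.03 and −0.08 with the correction, where neither passed. The factor genes that were lower in both fits were Esrra (−0.22 and −0.18) and Gabpb1 (−0.18 and −0.17, adjusted p = 0.0481 with the correction), the latter a subunit of an ETS-type factor. Neither passed with limma on log2(TPM + 1), where Gabpb1 was at 0.05. Activity of these factors was not measured.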

How the data were processed

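STAR, RSEM and the build mm10 are listed, per the submitters' processing notes, and their versions and the annotation release are not given in the sources used here. RNAiso PLUS was used for extraction and the NEBNext Ultra II Directional kit for libraries, per the labels' protocols. Per the file headers, each deposited table holds expected counts, which are estimates that divide shared reads between genes and need not be whole, together with TPM, FPKM, length and effective length. The authors' TPM values are scaled by effective length and to the same sum in each library, and the deposited FPKM values were not used. Of the 47 tested genes, 12 had counts that were not whole in some library. Symbols and mm10 positions came from GENCODE vM21, and unmatched identifiers took no more than 0.013% of the counts in any library.

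After rounding, genes were filtered by filterByExpr, libraries scaled by TMM and groups tested by the quasi-likelihood method of edgeR with Benjamini-Hochberg adjustment over 11950 genes, threshold 0.05. CPM values use the TMM library sizes. For the length correction, a spline on log2 length (5 degrees of freedom) was fitted to each library's log2 CPM deviations, using genes whose average log2 CPM reached 2, and entered as an offset. The alternatives were other composition factors (RLE, upper-quartile or none), no filter or a minimum of 2 CPM in 3 libraries, DESeq2 (whose 1 adjusted p of NA was kept as NA), limma on log2(TPM + 1) and on log2(TPM + 0.1), offsets of effective length, other splines, the replicate block and leaving out each library. Libraries of one group differed by more than counting noise, with a chi-square of 1.73 to 1.99 per gene.

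Each tested gene is named with its log2 fold change in both fits. Values in every library are given for the gene of each role with the highest TPM and the one with the smallest length-corrected adjusted p, for genes called against their role, and for Atp5e and Cox5b, added after their values were seen. From other lists up to 3 genes by smallest adjusted p were to be named, and Ppargc1b, Esrra, Gabpb1 and the remaining mitochondrial genes were added after their values were seen. The genes, roles and lists were chosen with earlier results of these data known. Scripts ran in Python 3.11.15, with figures from matplotlib 3.10.9, and in R 4.3.3 with DESeq2 1.42.0, limma 3.58.1 and edgeR 4.0.16.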

Additional observations from a re-analysis of the deposited data

How the results depend on the processing

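Without the length correction, RLE factors, both other filters on low counts and the replicate block left the call of each of the 47 genes as it was. DESeq2 did not call Cox15, upper-quartile or no composition factors added Cox17, effective-length offsets ended 5 calls and limma on TPM ended 13. Among called genes the direction turned with the length correction and no other setting run, for Uqcrb (0.07), Cox6c (0.02), Cox8a (0.07), Cox7a2l (0.06) and Atp5g2 (0.07), where the offset itself is the only change. Of the genes not called, Cox17 (0.20) and Atp5s (0.24) also changed sign with it, and Atp5s with limma on log2(TPM + 1) (0.24), effective-length offsets (0.14) and without untreated replicate 1 or rapamycin replicate 1 (0.10 and 0.06). That correction left 23 of the 47 genes lower and 1 higher (4 in complex III, 3 complex IV subunits, and 4 lower and 1 higher in complex IV assembly), with median log2 fold changes of −0.14 for the set, −0.14 for complex III, −0.09 for complex IV subunits, −0.28 for complex IV assembly and −0.23 for complex V. With limma on log2(TPM + 1) or log2(TPM + 0.1) the medians were −0.29 for the set, −0.29 for complex III (5 lower), −0.30 for complex IV subunits, −0.28 and −0.29 for complex IV assembly (4 lower) and −0.37 for complex V. Effective-length offsets gave −0.38, −0.38, −0.39 and −0.37 for the set, complex III, complex IV subunits and assembly. Upper-quartile or no composition factors gave −0.48 for the set, −0.48 for complex IV subunits and −0.50 for complex V. For the TPM, effective-length and composition settings the cause was not tested.

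Leaving out each library in turn, the uncorrected medians ran from −0.44 to −0.41 for the set, −0.46 to −0.38 for complex III, −0.48 to −0.40 for complex IV subunits, −0.49 to −0.40 for complex IV assembly and −0.49 to −0.44 for complex V. The length-corrected medians ran from −0.17 to −0.13 for the set, −0.13 to −0.07 for complex IV subunits and −0.35 to −0.24 for complex IV assembly. Between 0 and 1 gene of the set, and of complex IV assembly, was higher with the correction. Of the 44 uncorrected calls 42 held with each library left out, and of the 23 lower length-corrected calls 16 did. The length-corrected calls did not change with 3 in place of 5 degrees of freedom, with a further spline on GC content or with the curve fitted without respiratory and ribosomal genes. Same-numbered libraries did not deviate together (r = −0.0623, −0.0311 and −0.0639), so no pairing was seen. With deviations taken from the mean of 3 libraries, this check cannot exclude that same-numbered libraries were prepared together. With the replicate block 44 genes were lower (median −0.43), and 23 with the length correction (median −0.14). The lowest counts among tested genes, 33 to 58 for Atp5s, limit what could be seen there.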
